A study of Homo sapiens with 23 samples.

Results

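WT1 and its antisense transcript WT1-AS were examined in NCCITs, a human embryonal carcinoma cell line. The pair was chosen by the measured WT1 counts, which were higher after doxycycline in these same RNA libraries, so the RNA values of WT1 below are a description without a test. RNA was measured as kallisto's estimated counts and TPM (a share of all transcripts, corrected for their length) in 6 libraries. WT1 was 1 of the 36084 genes to which these counts could be assigned, and 1 of the 16370 genes that passed the filter on low counts. All 22 annotated WT1 transcripts had a row with values. None of the 12 annotated WT1-AS transcripts matched a row (0 of 12), and of all annotated lncRNA transcripts 2206 of 56566 did, so the RNA level of WT1-AS was not analysed here.

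All RNA, YY1 and OCT4 libraries came from SCi-NCCITs, NCCITs that carry a doxycycline-inducible dCas9-KRAB (a catalytically dead Cas9 fused to a repressor domain) and constitutive guide RNAs against SVA retrotransposons. The groups were SCi-NCCITs without doxycycline and SCi-NCCITs treated with 2 µg/mL doxycycline for 72 hours. There were 3 RNA, 2 YY1, 2 H3K9me3 and 1 OCT4 library in each group, and 1 H3K9me3 library of NCCITs without dCas9-KRAB. The cells were selected clones, the guides also match LTR5Hs elements, and no library came from cells given doxycycline without dCas9-KRAB or guides. The drug and the repressor therefore cannot be told apart. The labels do not say whether replicates came from separate cultures, so the p-values measure the spread between these samples only.

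WT1 encodes a zinc finger transcription factor that is required for the development of the kidney, the gonads and the mesothelium and is mutated in Wilms tumour. It activates some genes and represses others, and its alternative splices and starts give proteins with different activities. WT1-AS is a long non-coding RNA transcribed from the opposite strand and away from the WT1 start. YY1 is a zinc finger factor that binds many active promoters, OCT4 (POU5F1) is a pluripotency factor, and H3K9me3 is a histone mark of heterochromatin that KRAB domains recruit.

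In GENCODE v44lift37 on hg19 (GRCh37), WT1 (ENSG00000184937) lies on the minus strand at chr11:32409321-32457110 and spans 47790 bp. WT1-AS (ENSG00000183242) lies on the plus strand at chr11:32457064-32522178 and spans 65115 bp. The genes overlap head to head over 47 bases, all of them exonic in both. The strand setting of the quantification is not given in the sources used here, so reads in these 47 bases cannot be told apart. They are a small part of the 8133 exonic bases of WT1 and the 7730 of WT1-AS.

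Sequences of hg19 that the results refer to are shown 5′ to 3′. The first is the centre of the recurrent YY1 peak upstream of WT1, chr11:32458558-32458758, on the plus strand, in which capitals mark the YY1 core GCCAT on either strand. The summits of this peak lie in an exon of WT1-AS.
YY1 peak centre: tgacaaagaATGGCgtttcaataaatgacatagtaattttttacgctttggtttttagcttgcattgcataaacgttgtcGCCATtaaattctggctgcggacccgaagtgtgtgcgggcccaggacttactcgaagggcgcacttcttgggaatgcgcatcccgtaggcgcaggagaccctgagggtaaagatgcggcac
The next are the 250 bases before each of the main annotated WT1 starts, both on the minus strand. The window before exon 1 is chr11:32457111-32457360 and that before the late start in intron 1 is chr11:32452360-32452609. Capitals mark a GC box (GGGCGG on either strand).
upstream of exon 1 start: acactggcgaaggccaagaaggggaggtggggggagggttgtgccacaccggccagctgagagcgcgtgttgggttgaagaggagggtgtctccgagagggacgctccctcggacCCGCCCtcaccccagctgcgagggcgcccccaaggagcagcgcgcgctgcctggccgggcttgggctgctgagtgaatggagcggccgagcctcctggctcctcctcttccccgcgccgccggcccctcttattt
upstream of late intron 1 start: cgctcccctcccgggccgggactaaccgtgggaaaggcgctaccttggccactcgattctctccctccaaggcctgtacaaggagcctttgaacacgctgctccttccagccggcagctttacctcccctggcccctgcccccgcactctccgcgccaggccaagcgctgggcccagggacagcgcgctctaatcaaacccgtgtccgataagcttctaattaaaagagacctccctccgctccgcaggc
The last are the alternatively spliced exon 5 at chr11:32438036-32438086 and exon 9 at chr11:32413518-32413610, both on the minus strand. Capitals mark the 9 bases at the end of exon 9 that encode the amino acids KTS (lysine, threonine, serine) and are kept or left out by a choice of splice site.
exon 5: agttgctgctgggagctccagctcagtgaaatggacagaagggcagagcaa
exon 9: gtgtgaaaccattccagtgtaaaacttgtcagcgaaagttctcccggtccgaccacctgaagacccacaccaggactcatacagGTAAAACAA

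The window before exon 1 had a GC content of 70.0% and held a single GC box and no GCCAT. The window before the late start in intron 1 had a GC content of 64.0% and held neither motif. Both strands were searched, and the matches do not overlap each other. Over the 250 bases before the start of 20140 protein-coding genes, 48.8% held a GC box and 28.1% a GCCAT. These are matches of letters, and binding was not measured by them.

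WT1 was higher after doxycycline in every library. Without doxycycline, WT1 had 171, 399 and 556 counts in replicates 1, 2 and 3, and with doxycycline 1601, 1703 and 1655. The libraries held 14683302, 31905728 and 43443251 counts on genes without doxycycline, and 44680430, 47862234 and 46638946 with it, so the counts have to be read per depth. As CPM (counts scaled to the depth of the library, TMM-normalised), the level was 11.7, 12.6 and 12.9 without doxycycline and 35.6, 35.7 and 35.2 with it.

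The groups of WT1 values did not overlap, and within each group the libraries lay close together. The mean level was 12.38 ± 0.652 CPM (SD, n = 3) without doxycycline and 35.47 ± 0.245 CPM (SD, n = 3) with it, a difference of 1.51 on the log2 scale (SE 0.0658), or 2.85-fold. Of all 16370 genes, 19.2% had all 3 doxycycline libraries above all 3 without, 8.97% were called higher by edgeR, and 87 (0.531%) had a larger log2 fold change than WT1. The median log2 fold change of all genes was -0.003.

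Per length, WT1 stood at 9.52, 10.8 and 9.17 TPM without doxycycline and at 26.8, 25.1 and 28.4 TPM with it. Between 46.5% and 49.0% of genes had a lower TPM than WT1 without doxycycline, and between 69.5% and 70.8% with it. WT1 thus moved from near the middle of the distribution of genes to a higher place in it. In such bulk libraries, more cells with WT1 RNA and more WT1 RNA per cell cannot be told apart.

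**Figure D1:**
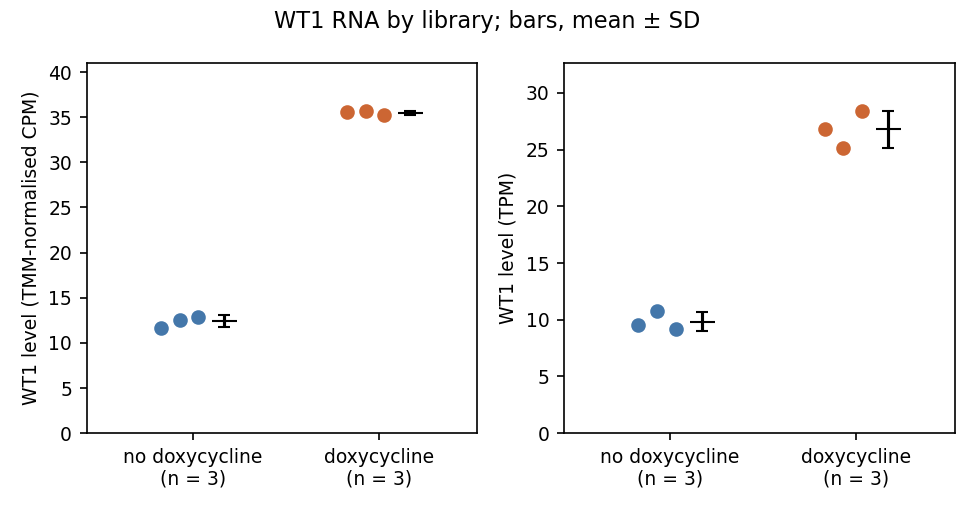
WT1 RNA in each of the 6 libraries, as TMM-normalised CPM (left) and TPM (right); points are libraries and bars the mean ± SD of 3. The doxycycline libraries sit between 35.2 and 35.7 CPM, all above the libraries without doxycycline.

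The annotated WT1 transcripts differ in their first exon, and the groups lay apart for some of these classes and overlapped for others. Kallisto divides reads that match several transcripts by likelihood, so the transcript values are estimates, and those of replicate 1 without doxycycline rest on 171 counts for the whole gene. Of the 22 transcripts, 9 had a mean of at least 10 counts. Of these 9, 3 (WT1-203, WT1-207 and WT1-220) had all 3 doxycycline libraries above all 3 without, none were below, and 6 overlapped. Over all 68078 transcripts with at least 10 counts on average, 9.15% had the higher and 11.3% the lower pattern.

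The 5 transcripts that start in exon 1 encode the N-terminal part of the classical WT1 protein. Their summed level was 1.46, 1.76 and 0.581 TPM without doxycycline and 0.944, 1.29 and 2.04 TPM with it. In TPM the groups overlapped, with means of 1.26 ± 0.611 TPM and 1.42 ± 0.561 TPM (SD, n = 3 each). The estimated counts of these transcripts were 30.3, 68.8 and 54.8 without doxycycline and 99.0, 132.8 and 162.0 with it. Per library depth these counts lay just apart, higher with doxycycline, so the overlap depends on the unit. As a share of all WT1 TPM, exon 1 starts made up 12.7% ± 5.49 without doxycycline and 5.28% ± 1.84 with it. The shares of TPM overlapped as well, at 15.3%, 16.3% and 6.34% against 3.52%, 5.13% and 7.19%. By estimated counts in place of TPM the shares lay just apart, at 17.72%, 17.24% and 9.85% against 6.19%, 7.8% and 9.79%. Among the exon 1 transcripts, the reference transcript WT1-205 had 0 TPM in all libraries without doxycycline and a mean of 0.108 ± 0.055 TPM with it.

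Transcripts that start within intron 1 lack exon 1 and so the N-terminal domain encoded there. WT1-203 and WT1-209 share a first exon at chr11:32452076-32452359, whose start lies 4751 bp below the WT1 start and just after the late window printed above. Their summed level was 3.52, 2.84 and 4.79 TPM without doxycycline and 12.6, 9.44 and 8.22 TPM with it. These groups did not overlap, and the share of this start in all WT1 TPM was 38.6% ± 13.0 and 37.8% ± 8.93, respectively (SD, n = 3 each).

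WT1-212 starts earlier in intron 1, 1396 bp below the WT1 start. It had 0.850, 0.529 and 0 TPM without doxycycline and 0.0002, 4.93 and 4.90 TPM with it. The replicates with doxycycline thus differed from each other by nearly the whole range.

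The remaining 14 annotated transcripts have internal first exons, among them retained introns and fragments. They summed to 3.69, 5.63 and 3.79 TPM without doxycycline and to 13.3, 9.49 and 13.2 TPM with it. The groups did not overlap, and the share was 44.2% ± 7.23 and 44.7% ± 6.20 of all WT1 TPM. The retained intron transcript WT1-220 had a mean of 0.895 ± 1.10 TPM without doxycycline and 4.82 ± 1.33 TPM with it.

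**Figure D2:**
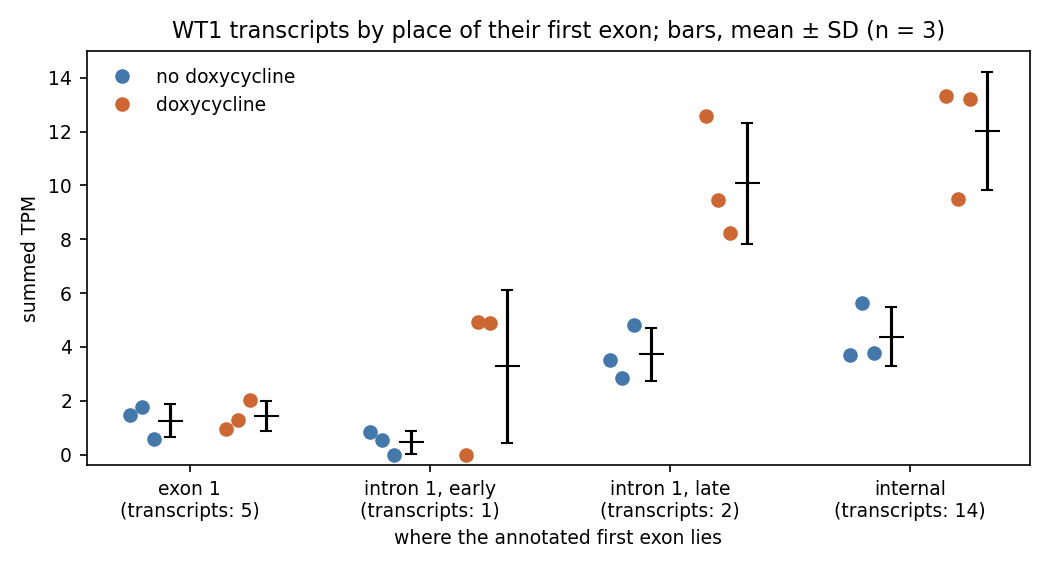
Summed TPM of the WT1 transcripts by the place of their annotated first exon; points are libraries and bars the mean ± SD of 3. On this TPM scale the exon 1 class overlaps between the groups, while the late intron 1 and the internal class lie higher in all 3 doxycycline libraries.

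WT1 messages also differ by splicing inside the gene. Exon 5 (51 bases, printed above) is present in mammals and lies between the N-terminal part and the zinc fingers, and the KTS insert lies in the linker before the last zinc finger. Isoforms with KTS bind RNA and associate with splicing factors, while those without KTS act mainly at DNA. Only transcripts that span the exon in question were counted, 6 with and 4 without exon 5, and 14 with and 7 without KTS.

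The share with exon 5 was 30.9%, 38.6% and 44.7% of TPM without doxycycline and 64.9%, 50.9% and 50.8% with it. All values with doxycycline lay above those without (38.1% ± 6.89 and 55.5% ± 8.09, SD, n = 3 each). By estimated counts in place of TPM the groups also did not overlap, at 34.8% ± 3.15 and 48.3% ± 6.71. Much of the exon 5 TPM with doxycycline came from WT1-207, a transcript of 578 bases without a defined coding sequence. WT1-207 had 0, 0.821 and 0.763 TPM without doxycycline. With it, WT1-207 had 5.09, 2.24 and 4.60 of 12.1, 9.11 and 10.2 TPM, from 72.5, 35.3 and 67.4 counts. With WT1-207 left out, the TPM shares of the groups overlapped, as replicate 3 with doxycycline then lay just below replicate 3 without. The shares of estimated counts still lay apart without it. The separation in TPM thus rested on this transcript. WT1-203, which keeps exon 5, had 0.992, 1.48 and 1.98 TPM without doxycycline and 6.52, 6.74 and 4.77 TPM with it. WT1-209, which starts at the same exon and leaves exon 5 out, had 2.53, 1.36 and 2.82 TPM and then 6.04, 2.70 and 3.45 TPM, and its groups overlapped.

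The share with KTS was 73.7%, 79.5% and 68.0% of TPM without doxycycline and 67.4%, 65.6% and 71.9% with it. These groups overlapped, with means of 73.8% ± 5.78 and 68.3% ± 3.25. Transcripts with KTS thus made up most of the WT1 TPM in both groups. They include the retained intron transcript WT1-220 (mean 0.895 TPM without and 4.82 with doxycycline). WT1-216, annotated for nonsense-mediated decay, is also among them (1.67 and 2.42 TPM). The shares are therefore of annotated transcripts, and those of the protein isoforms were not measured.

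**Figure D3:**
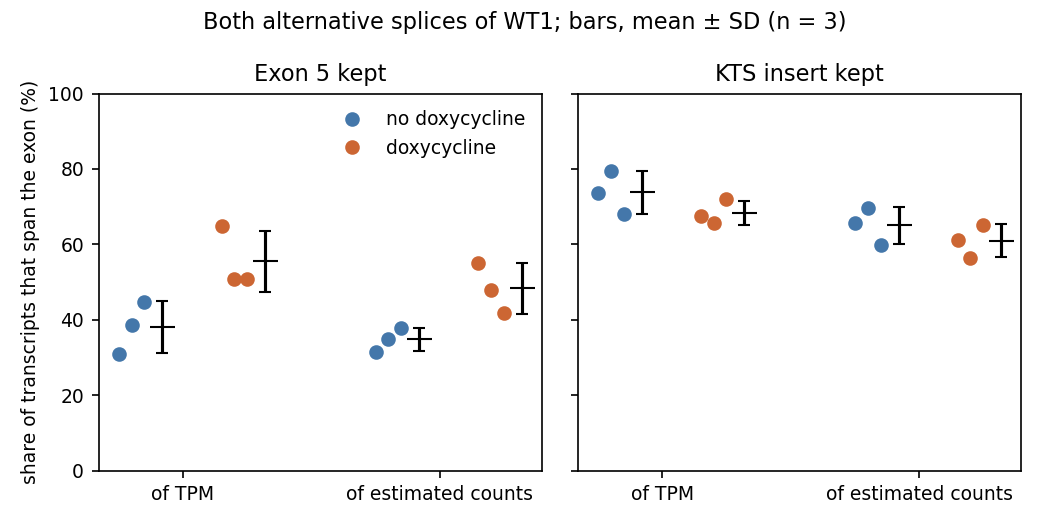
Share of WT1 transcripts that keep exon 5 (left) or the KTS insert (right), of TPM and of estimated counts; points are libraries and bars the mean ± SD of 3. The exon 5 share is higher in all 3 doxycycline libraries on both scales, and the KTS share overlaps between the groups. Without WT1-207, the exon 5 shares of TPM overlap.

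YY1, H3K9me3 and OCT4 peaks were measured in other libraries than the RNA values that chose WT1, under the same doxycycline contrast. The peak lists were searched within 50 kb on both sides of the WT1 start. They give each peak's fold enrichment over background and its -log10 q, and no read depth, so the absence of a peak in a list sets no limit on the signal.

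A YY1 peak just upstream of WT1 recurred in 3 of 4 lists as deposited, and in 2 of 4 at equal list length. It was absent from the list of replicate 1 without doxycycline and had a fold enrichment of 4.79 in replicate 2 without doxycycline, and of 4.85 and 5.07 in replicates 1 and 2 with doxycycline. The summits lay 1512 to 1551 bp upstream of the WT1 start, within 39 bp of each other. The 401 bp common to the peaks, chr11:32458372-32458772, overlap an exon of WT1-AS, and the summits lie in an exon of WT1-AS. In fold enrichment these were middling peaks, above 37.5%, 43.3% and 47.4% of the peaks of their libraries. The -log10 q was 5.13, 6.58 and 6.66.

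The 201 bases at its centre, printed above, held the YY1 core GCCAT at 18 bp and, on the opposite strand, at 89 bp from the median summit. Of all YY1 peak centres of this width, 69.5% to 75.0% held at least 1 GCCAT and 21.9% to 25.3% held 2 or more.

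The pattern over the 4 YY1 libraries, a peak within 2 kb of the start in all but replicate 1 without doxycycline, was shared by 475 of the 16370 tested genes (2.9%). A peak in all 4 was present for 57.4% of genes and in none for 21.5%. In replicate 1 without doxycycline, the nearest YY1 peak lay 117.4 kb upstream of the WT1 start, and this library had the shortest YY1 list, with 56370 peaks. The other lists held 76098 peaks in replicate 2 without doxycycline, and 82005 and 115673 in replicates 1 and 2 with it. When each YY1 list was shortened to its 56370 peaks with the strongest p, replicate 1 without doxycycline still had no peak in the window. The recurrent peak then stood in 2 of 4 lists, replicate 2 without doxycycline and replicate 1 with doxycycline, 1 in each group. In replicate 2 with doxycycline it ranked 67671 by p and was dropped.

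Over the whole 50 kb window there were 0 and 2 YY1 peaks without doxycycline and 2 and 3 with it. The difference of 1.5 peaks did not pass an exact two-sided permutation test over libraries (p = 0.67, n = 2 against 2), and 0.33 is the smallest p such a test can give. The peaks covered 326 ± 461 bp without doxycycline and 927 ± 318.2 bp with it (p = 0.33, the same exact test). The strongest was a peak 37884 bp upstream, in an intron of WT1-AS, with a fold of 6.98 in replicate 2 with doxycycline alone. Replicate 2 without doxycycline alone had a peak 38870 bp downstream, in an exon of WT1 (fold 4.42). With the same number of peaks taken from each YY1 library, the window held 0 and 1 against 1 and 1 peaks, and the one kept in replicate 2 with doxycycline was the peak 37884 bp upstream.

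**Figure D4:**
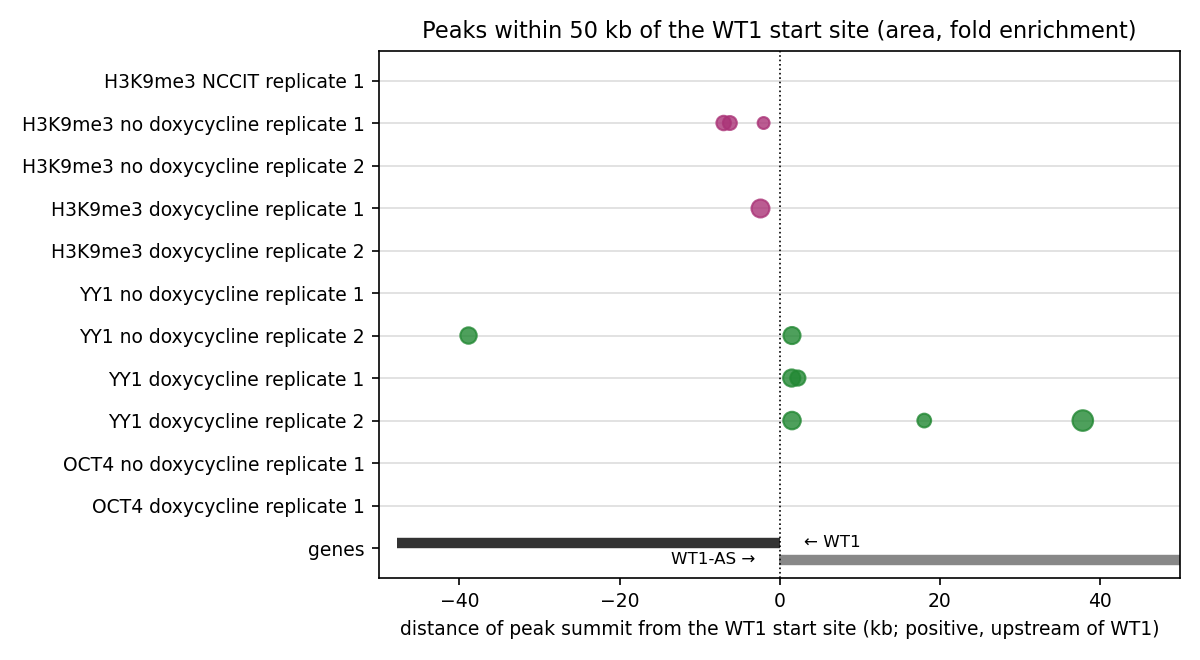
Summits of YY1, H3K9me3 and OCT4 peaks by library against their distance from the WT1 start in kb, with the WT1 and WT1-AS genes below; the area of a point is proportional to fold enrichment. A YY1 peak about 1.5 kb upstream stands in 3 of the 4 YY1 lists as deposited, and OCT4 has no peak in the window.

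H3K9me3 peaks near the WT1 start were few and differed between replicates. NCCITs without dCas9-KRAB had 0 in the window, SCi-NCCITs without doxycycline had 3 and 0, and those with doxycycline had 1 and 0. The difference of -1.0 peaks did not pass the exact permutation test (p = 1.0, n = 2 against 2). Without replicate 1 of the cells without doxycycline, the direction turned, to 0.5 more peaks with doxycycline. All 4 peaks lay inside WT1, between 1998 and 6992 bp below the start.

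In replicate 1 without doxycycline these peaks had folds of 2.33, 3.18 and 3.44, and in replicate 1 with doxycycline the peak had a fold of 5.30 with its summit 2444 bp below the start, in intron 1. In the other 3 libraries the nearest H3K9me3 peak was 57.2 to 61.3 kb downstream. For comparison, 76.5% to 85.7% of tested genes had an H3K9me3 peak within 50 kb, and 5.88% to 10.1% had one within 2 kb.

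OCT4 had no peak within 50 kb of the WT1 start in either library. The nearest lay 70.0 kb downstream without doxycycline (fold 6.34) and 70.1 kb downstream with it (fold 4.65). Of all tested genes, 85.7% had an OCT4 peak within 50 kb without doxycycline and 51.7% with it, from lists of 50775 and 23352 peaks. With 1 library each there is no replicate check.

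The genes next to WT1 on chromosome 11 mostly differed little between the groups. Besides WT1-AS, 37 other genes are annotated within 1 Mb of its start, 14 of them protein-coding. Of the 37, 13 were tested, all protein-coding, and the rest had no values or did not pass the filter on low counts. edgeR called 1 higher and 1 lower at an adjusted p under 0.05, against 8.97% and 8.49% of all genes, and the median log2 fold change was -0.02. Each call was lost in some of the fits that left out a library.

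RCN1, a calcium-binding protein of the endoplasmic reticulum whose start lies 344.5 kb away on the side of the 3′ end of WT1, rose from 142.6 ± 7.83 to 171.5 ± 2.74 CPM (log2 fold change 0.27, SE 0.0561, edgeR adjusted p = 0.0124). The call was lost without replicate 2 of either group. HIPK3, a nuclear kinase 821.1 kb away on the side of WT1-AS, fell from 54.39 ± 5.66 to 43.26 ± 2.25 CPM (log2 fold change -0.34, SE 0.0792, edgeR adjusted p = 0.0191). Its call was lost without replicate 2 or 3 of the cells without doxycycline, or without replicate 1 or 2 of those with it. EIF3M, the nearest tested neighbour and a translation initiation factor subunit, had 168.0 ± 7.34 and 159.4 ± 9.67 CPM (log2 fold change -0.08, adjusted p = 0.427). PAX6, an eye and brain factor that is deleted together with WT1 in WAGR syndrome, had 0.627 ± 0.247 and 0.900 ± 0.074 CPM (log2 fold change 0.64, SE 0.295, adjusted p = 0.17). None of the other 9 passed the test, and their log2 fold changes ran from -0.59 for CCDC73 to 0.12 for ELP4.

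**Figure D5:**
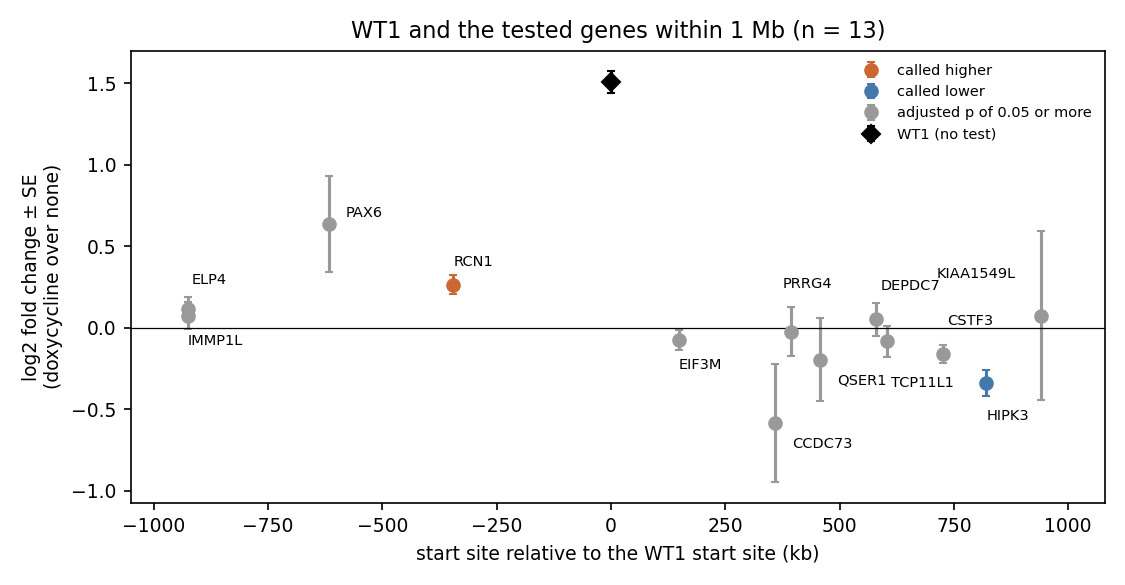
Log2 fold change ± SE with doxycycline of WT1 and of the 13 tested genes within 1 Mb, against the distance of their start from that of WT1 in kb. WT1 stands at 1.51, and the neighbours lie between -0.59 and 0.64.

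Genes known to be activated or repressed by WT1 were called in a share close to that of all genes. The list pools both kinds, and the calls were not matched to the known direction of each gene. Of 41 such genes, 36 were tested, and edgeR called 5 higher and 2 lower (19.4%, against 17.5% of all genes), with a median log2 fold change of 0.04. CSF1, a macrophage growth factor, rose from 7.11 ± 0.703 to 12.98 ± 0.538 CPM (log2 fold change 0.88, adjusted p = 0.000377). IGF2, a fetal growth factor, rose from 1.98 ± 0.433 to 3.38 ± 0.449 CPM (log2 fold change 0.82, adjusted p = 0.0155), a call lost without replicate 2 or 3 of the cells without doxycycline. TGFB1, CCN2 and SNAI1 rose by 0.50, 0.47 and 0.45 on the log2 scale, and the SNAI1 call was lost in 3 of the 6 fits that left out a library.

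On the other side, the taurine transporter gene SLC6A6 fell from 116.7 ± 3.32 to 72.75 ± 5.14 CPM (log2 fold change -0.68, adjusted p = 0.000153). The growth regulator MYC fell from 24.62 ± 2.24 to 15.05 ± 2.28 CPM (log2 fold change -0.70, adjusted p = 0.00343). Among the 29 tested targets that were not called, NR0B1, the gonadal gene DAX1, had 0.190 ± 0.0723 and 0.387 ± 0.0528 CPM (adjusted p = 0.0587). AMH, the Müllerian inhibitor, had 17.63 ± 2.36 and 19.56 ± 2.75 CPM (adjusted p = 0.404), and NPHS1, the podocyte gene nephrin, 0.501 ± 0.0803 and 0.408 ± 0.041 CPM (adjusted p = 0.415).

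Of 15 genes whose proteins bind WT1, 0 were called higher and 3 lower (against 8.97% and 8.49% of all genes), EP300, CREBBP and TET3, at log2 fold changes of -0.38, -0.34 and -0.34. EP300 and CREBBP are histone acetyltransferases and TET3 oxidises methylated cytosine. The EP300 call was lost in 5 and the TET3 call in 4 of the 6 fits that left out a library. The corepressor BASP1 had 333.2 ± 33.4 and 381.1 ± 31.6 CPM (adjusted p = 0.144), and WTAP, the partner in RNA methylation, 108.0 ± 0.955 and 97.54 ± 1.91 CPM (adjusted p = 0.0668). Of the EGR family, whose zinc fingers resemble those of WT1, EGR1, EGR2 and EGR3 were tested and not called, and EGR1 had 98.98 ± 26.2 and 77.12 ± 11.3 CPM (adjusted p = 0.2).

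Of 12 genes known to regulate WT1 transcription, 9 were tested and 4 called, 1 higher and 3 lower, against 8.97% and 8.49% of all genes. NFKB1 was called higher (log2 fold change 0.28, adjusted p = 0.0408), and MYB (-0.51, 0.0101), the Polycomb methyltransferase EZH2 (-0.38, 0.0022) and the insulator protein CTCF (-0.23, 0.0256) were called lower. The NFKB1 call was lost in 5 and that of CTCF in 4 of the 6 fits that left out a library. SP1, which binds GC boxes, had 153.8 ± 16.1 and 130.4 ± 9.19 CPM (adjusted p = 0.0766).

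Cell types that normally express WT1 were looked for by their markers. Of 22 nephron progenitor and gonadal ridge factors, 14 were tested and 2 were called higher and 0 lower (14.3% called, against 17.5% of all genes), GATA6 (0.963 ± 0.264 to 2.60 ± 0.154 CPM, log2 fold change 1.46, adjusted p = 0.00194) and CITED2 (92.43 ± 2.22 to 123.4 ± 4.95 CPM, log2 fold change 0.42, adjusted p = 0.00102). SIX2, a defining factor of nephron progenitors, had 0.307 ± 0.0374 and 0.328 ± 0.156 CPM (adjusted p = 0.924). The summed TPM of this list lay between 118.9 and 124.7 without doxycycline and between 130.1 and 145.5 with it. Without CITED2, left out after its values were seen, the sums overlapped, at 60.2 to 65.1 TPM and 56.9 to 65.1 TPM.

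Of 10 podocyte markers, 8 were tested, and edgeR called 1 higher and 2 lower. For this list and the next ones, the shares over all genes are 8.97% higher and 8.49% lower. PTPRO, a receptor phosphatase of podocytes, was called higher (log2 fold change 0.72, adjusted p = 0.00395). CD2AP, an adaptor of the slit diaphragm, was called lower (-0.32, adjusted p = 0.0143), a call lost in 3 of the 6 fits that left out a library. The summed level of the list overlapped between the groups, at 199.6 to 223.8 TPM without doxycycline and 169.0 to 214.3 TPM with it. Of 11 Sertoli and granulosa cell markers, 8 were tested and 0 called by edgeR in either direction. The summed level of the list was 20.8 to 27.8 and 22.0 to 29.7 TPM. SOX9 was among the untested genes, at 0.075, 0.054 and 0.031 TPM without doxycycline and 0.971, 0.025 and 0.753 TPM with it. The other untested genes, DMRT1 and DHH, reached at most 0.055 and 0.031 TPM in any library. Of 9 mesothelial markers, 7 were tested, with DES higher (log2 fold change 0.58, adjusted p = 0.0013) and KRT19 lower (-0.71, 0.0196, lost without replicate 2 or 3 of the cells with doxycycline), and the sums overlapped at 138.2 to 155.7 and 141.7 to 161.8 TPM. Few abundant genes set most of each sum, so the sums say little about the other markers. For podocytes these were PODXL (mean 87.14 TPM without and 65.33 with doxycycline) and ACTN4 (83.57 and 83.98). For Sertoli and granulosa cells it was AMH (20.03 and 21.14), and for mesothelium PDPN (95.09 and 91.44). The part of these cell types in the WT1 values was not tested beyond these levels.

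Markers of the pluripotent state of NCCITs were mostly lower in the libraries in which WT1 was higher. Of 10, edgeR called 0 higher and 6 lower (8.49% of all genes were called lower), TDGF1, L1TD1, DNMT3B, NANOG, GDF3 and SALL4, and the median log2 fold change was -0.28. The SALL4 call was lost in 5 and that of GDF3 in 2 of the 6 fits that left out a library. TDGF1, a co-receptor of Nodal, fell from 193.4 ± 6.96 to 88.14 ± 6.43 CPM (log2 fold change -1.13, adjusted p = 8.33e-06). POU5F1 (OCT4) had 196.1 ± 38.1 and 179.4 ± 16.9 CPM (adjusted p = 0.527) and SOX2 625.4 ± 46.7 and 546.5 ± 52.2 CPM (adjusted p = 0.132). The summed level was 1725.5 to 1909.3 TPM without doxycycline and 1323.7 to 1483.9 TPM with it, with no overlap. Its part in the WT1 values was not tested.

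Genes with a pattern like that of WT1 were ranked by Pearson's r of log2 CPM over the 6 libraries, among 13875 other genes whose mean level reached 1 CPM. Since the libraries form only these groups, r mostly follows the difference between them, and 548 genes had an r above 0.95 and 589 below -0.95. Among the highest were SDC2, a cell surface proteoglycan (r = 0.9988), FOXD1, a forkhead factor of the kidney stroma (0.9979), the DNA repair gene PARP2 (0.9978) and ZNF10 (0.9977). ZNF10, a zinc finger gene whose KRAB domain is the one in common use in dCas9-KRAB fusions, went from 10.82 ± 0.882 to 398.1 ± 52.9 CPM. Whether these counts came from the ZNF10 gene or from the induced dCas9-KRAB was not tested. FOXD1 went from 2.49 ± 0.118 to 27.27 ± 2.29 CPM, and SDC2 from 48.72 ± 0.672 to 81.87 ± 1.04 CPM. The lowest were SMIM10L2A (-0.9985), DERA (-0.9984) and the histone gene H2BC11 (-0.9983). All these genes lie on other chromosomes than WT1.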

How the data were processed

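RNA-seq of 6 libraries and ChIP-seq of 11 were used. The RNA-seq tables deposited by the authors hold, for each transcript, an estimated count and a TPM from kallisto, neither normalized further. The counts of a gene's transcripts in GENCODE v44lift37 were added up (166506 of 188753 transcripts matched, 88.2%, with at least 95.852% of counts), rounded, and compared with edgeR 4.0.16 (filterByExpr, TMM, quasi-likelihood test, Benjamini-Hochberg adjustment over all 16370 genes, threshold 0.05). For ChIP-seq, the authors aligned reads to hg19 with BWA, removed duplicates and called peaks per library. The deposited lists give the fold enrichment as a ratio and -log10 q. A peak counted when at least 1 bp lay in the window, and 16 columns of a HiChIP table that could not be assigned to samples were not used. Named genes were the called members of 9 lists with the largest changes (up to 3 per direction), all tested neighbours, the 5 most and 3 least alike genes, and others named for their role after their values were seen. Some genes set by these rules are not reported here. The members and lists were chosen with earlier results of these data known. edgeR was tested on simulated data. Alternatives were DESeq2 1.42.0, its size factors, other filters, a replicate block, length-scaled counts, other peak thresholds and windows, and leaving out each library.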

Additional observations from a re-analysis of the deposited data

How the results depend on the processing

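The log2 fold change of WT1 lay between 1.47 and 1.54 when each library was left out, and was 1.51 with DESeq2, 1.51 with the replicate block and 1.49 with length-scaled counts. Same-numbered libraries did not deviate together (correlations of 0.128, 0.08 and -0.001), so the block stands here only: it called 3316 genes against 2858, and 12 list genes higher and 13 lower against 10 and 11. The TET3 call was lost under the block. Length-scaled counts called 1900 genes in all and 2 neighbours of WT1 higher. Leaving out each library in turn gave 1396 (without replicate 2 with doxycycline) to 3260 genes called (without replicate 1 without doxycycline), 0 to 1 neighbours higher, 0 to 2 neighbours lower, 7 to 12 list genes higher and 6 to 12 lower. By estimated counts, exon 1 starts made up 7.92% of WT1 with doxycycline, against 5.28% of TPM. The H3K9me3 difference turned from -1.0 to 0.5 peaks without replicate 1 of the cells without doxycycline (range -2.5 to 0.5 over the libraries left out) and to 0.5 peaks at a -log10 q of at least 5. For WT1-AS RNA, no alternative could give a value. With 14683302 counts, replicate 1 without doxycycline limits the transcript estimates.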
